A study of Mus musculus with 8 samples.

Results

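The Ly6 surface antigen family was followed in sorted bone marrow cells of mice with and without Trerf1, a zinc finger transcription factor gene. Its members were taken by name: Ly6a, Ly6c1, Ly6c2, Ly6d, Ly6e, Ly6g, Ly6h, Ly6i and Ly6k, 9 of the 53647 gene identifiers counted. RNA was sequenced from 8 libraries of marrow cells that lack lineage markers and carry CD127, the interleukin 7 receptor alpha chain. The 4 wild-type libraries (WT1 to WT4) are labelled Trerf1 +/+ and the 4 knockout libraries (KO1 to KO4) Tref1 -/-, as the labels spell it. The labels name no other treatment, and strain, age, sex, the design of the allele and whether each library is a separate animal were not given in the sources used here. The p-values below therefore measure the spread between these libraries, which may be technical.

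Ly6 proteins are small, cysteine-rich proteins that fold into a three-finger domain and are mostly held on the outer cell surface by a glycosylphosphatidylinositol (GPI) anchor. Several serve as blood cell markers: Ly6d on B-biased lymphoid progenitors, Ly6a (Sca-1) on stem and early progenitor cells, Ly6c on monocytes, plasmacytoid dendritic cells and subsets of lymphocytes, and Ly6g on neutrophils. Interferon is known to raise the RNA of some members, among them Ly6a and Ly6e.

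Libraries held 31109744 to 73414626 gene counts, with 3 deeper ones (WT2, WT4 and KO4) and 5 shallower ones. Levels are CPM, the counts per 1e6 counts of a library, scaled by the TMM method of edgeR, and their errors are SD over 4 libraries. Trerf1 itself lay between 22.3 and 32.1 CPM in the wild-type libraries, and KO1 to KO3 held 12.1 to 13.4 CPM. In the library labelled KO4 it stood at 22.1 CPM, close to the 22.3 CPM of WT4, so the genotype of that library is taken from its label alone. Xist, the RNA that coats an inactive X chromosome, was at 447 CPM or more in 5 libraries (WT1, WT4, KO1, KO3 and KO4) whereas the 3 libraries WT2, WT3 and KO2 had at most 0.613 CPM and are called libraries without Xist. Il7r, which encodes CD127, was present in every library, from 269 to 415 CPM. Bulk RNA cannot tell fewer cells of a type from less RNA per cell.

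The family splits by sequence into a close group and more distant members. Over the coding sequences of the reference transcripts (GENCODE M21, GRCm38), which run from 381 bases in Ly6d to 462 in Ly6k without the stop codon, Ly6c1 and Ly6c2 were identical at 97.7% of aligned positions. The other pairs among Ly6a, Ly6c1, Ly6c2, Ly6g and Ly6i reached 77.9% to 86.3%, the highest being Ly6a with Ly6i. The 26 pairs that include Ly6d, Ly6e, Ly6h or Ly6k lay between 46.2% and 52.7%. The first 75 coding bases, 5′ to 3′, are shown for members whose RNA levels are compared below, because some close members share sequence stretches. Capitals in Ly6a, Ly6i and Ly6g mark bases that differ from Ly6c2 at the same position.
Ly6c2: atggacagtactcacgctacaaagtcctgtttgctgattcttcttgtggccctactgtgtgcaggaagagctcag
Ly6a: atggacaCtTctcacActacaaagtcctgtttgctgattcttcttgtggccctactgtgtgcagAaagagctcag
Ly6i: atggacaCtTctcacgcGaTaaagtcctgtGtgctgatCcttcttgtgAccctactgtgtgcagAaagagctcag
Ly6g: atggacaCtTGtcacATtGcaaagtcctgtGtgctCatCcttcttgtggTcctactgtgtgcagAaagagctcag
Ly6d: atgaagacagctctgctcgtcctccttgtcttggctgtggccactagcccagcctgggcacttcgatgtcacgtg
Ly6e: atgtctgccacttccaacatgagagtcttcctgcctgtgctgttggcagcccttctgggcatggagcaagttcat
In this window Ly6a differed from Ly6c2 at 4 bases, Ly6i at 8 and Ly6g at 11.

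The coding sequences of Ly6c1 and Ly6c2, 393 bases each without the stop codon, show why this pair needed a check of the counting. They differ at 9 positions, of which 7 lie in the first 300 bases and are in capitals.
Ly6c1: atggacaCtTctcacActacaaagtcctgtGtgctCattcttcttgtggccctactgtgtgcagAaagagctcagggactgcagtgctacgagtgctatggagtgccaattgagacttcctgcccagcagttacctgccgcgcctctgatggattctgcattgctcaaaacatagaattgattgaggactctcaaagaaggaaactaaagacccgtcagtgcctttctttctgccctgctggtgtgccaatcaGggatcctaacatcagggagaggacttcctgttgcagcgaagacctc
Ly6c2: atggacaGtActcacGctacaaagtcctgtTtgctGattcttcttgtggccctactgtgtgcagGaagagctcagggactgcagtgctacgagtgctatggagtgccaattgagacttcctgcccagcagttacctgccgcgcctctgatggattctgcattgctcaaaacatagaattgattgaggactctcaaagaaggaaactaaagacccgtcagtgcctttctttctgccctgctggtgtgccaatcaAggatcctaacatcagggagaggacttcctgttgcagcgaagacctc
Written with the Ly6c1 base first, then the position from 1 at the start codon, then the Ly6c2 base, the changes are C8G, T10A, A16G, G31T, C36G, A65G, G254A, T327C and G376A. Of these, 6 fall in the first 65 bases, and the longest stretch without a difference spans 188 bases.

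Each member lies on chromosome 15. In the gene positions of the count tables, read as GRCm39, the order is Ly6d (74633905 to 74635469), Ly6k (74668723 to 74671835), Ly6e (74826900 to 74831754), Ly6i (74851383 to 74855279), Ly6a (74866726 to 74869880), Ly6c1 (74915867 to 74920679), Ly6c2 (74980007 to 74983819), Ly6g (75027089 to 75030975) and Ly6h (75423117 to 75439104). Ly6e and Ly6g are on the plus strand and the other members on the minus strand.

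Members differed far more from each other than between genotypes. Divided by the gene length in the count files, Ly6d reached a mean of 5175 CPM per kilobase over the 8 libraries and ranked 1 among the 16352 genes tested. Ly6e followed at 624 CPM per kilobase and rank 42, which is 8.29 times lower. Ly6c2 and Ly6a came next at 92.0 and 90.0 CPM per kilobase, and their order is not resolved: Ly6c2 was the higher in 4 of 8 libraries. Ly6k stood at 11.2, Ly6c1 at 1.32 and Ly6i at 0.364 CPM per kilobase. Each of these neighbours in the order other than Ly6c2 and Ly6a was separated in 8 of 8 libraries. By the authors' TPM values Ly6d ranked 3 with a mean of 7297 and Ly6e 25 with a mean of 3118, a narrower gap. Ly6c2 rose to rank 243 and Ly6a fell to rank 887 by TPM. The gap between Ly6d and Ly6e and the place of Ly6c2 and Ly6a therefore depend on the length and counting method. All members together took 0.562% to 0.744% of all counts in a library, and Ly6d with Ly6e made up 92.0% to 95.5% of that.

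**Figure D1:**
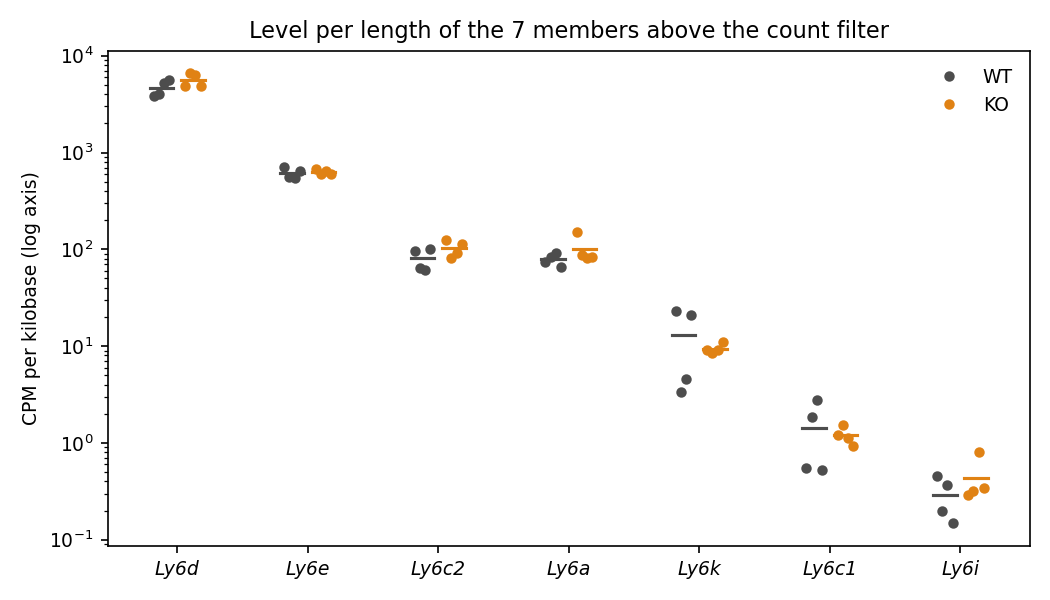
TMM-scaled CPM per kilobase of gene length on a log axis for the 7 members above the count filter. Points are libraries (4 WT, 4 KO) and lines are group means; Ly6d sits at the top with a mean of 5175 and Ly6i at the bottom with 0.364, and WT and KO points intermingle for every member shown.

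The single comparison of the study, knockout against wild type, was fitted over all genes with edgeR's quasi-likelihood test. No member passed a Benjamini-Hochberg adjusted p of 0.05, and every tested member had an adjusted p of 0.999. The share of all tested genes that passed was 0%: of 16352 genes 0 passed, while 322 (1.97%) had an unadjusted p under 0.05, against 0 of the 7 tested members. DESeq2 also passed 0 genes, with 565 under an unadjusted p of 0.05. The groups of 4 overlapped for each of the 7 members, while they did not overlap for 1.28% of all genes. Ly6d, Ly6e, Ly6a, Ly6c2 and Ly6i had higher estimates in knockout and Ly6k and Ly6c1 lower ones, 5 of 7 higher against 51.7% of all genes. The median log2 fold change was 0.28 over these 7 and 0.01 over all genes. With WT4 and the library labelled KO4 left out, 0.0736% of 16300 genes passed and 0 of the 7 members did. Ly6g and Ly6h were below the count filter and could not be tested.

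**Figure D2:**
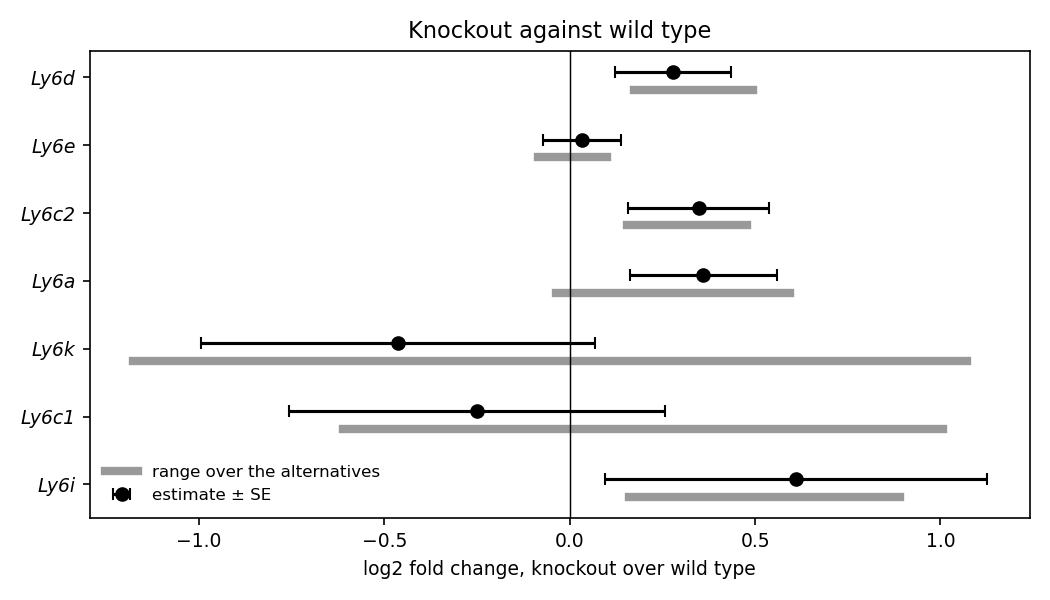
Log2 fold change of knockout over wild type for the 7 tested members. Points with bars are estimates ± SE, and grey bars span the values under the alternative settings; the estimate of Ly6e is 0.03, and the grey bars of Ly6a, Ly6c1, Ly6e and Ly6k cross 0.

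Ly6d, the marker of progenitors leaning to the B lineage, was the most abundant member and the third most abundant gene by CPM. It measured 2856, 2993, 3877 and 4197 CPM in WT1 to WT4 and 3607, 4905, 4708 and 3661 CPM in KO1 to KO4. The highest libraries were KO2 and KO3 and the lowest WT1 and WT2, with WT3 and WT4 inside the range of the knockouts. The wild-type mean was 3481 ± 658 CPM, and the knockout mean was 4220 ± 682 CPM. The log2 fold change was 0.28 ± 0.16 (SE; edgeR adjusted p = 0.999), and the estimate ± 2 SE spans -0.04 to 0.59. The fixed markers of lymphoid and B-biased progenitors, 13 of 13 measured, had summed levels of 2980 to 4660 CPM in the wild-type libraries and 3390 to 5720 CPM in the knockouts, and 0 of them passed. KO2 had the highest sum (5720 CPM) and the highest Ly6d, while WT4 had the lowest sum (2980 CPM) and the highest wild-type Ly6d. WT1 and WT2, lowest in Ly6d, had sums of 4000 and 4660 CPM. The part of these markers in the Ly6d level was not tested.

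Ly6e, which is broadly expressed and is known as an interferon-induced member that restricts entry of some viruses, was the steadiest member. Its values were 2662, 2139, 2085 and 2455 CPM in WT1 to WT4 and 2542, 2295, 2449 and 2269 CPM in KO1 to KO4. Every knockout library lay within the range of the wild-type libraries. The means of 2335 ± 272 and 2389 ± 129 CPM gave a log2 fold change of 0.03 ± 0.10 (SE; edgeR adjusted p = 0.999). The estimate ± 2 SE spans -0.18 to 0.24, so larger changes of Ly6e lie outside that interval. Its biological coefficient of variation in the fit was 12.2%, below the 26.9% over all genes.

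Ly6a, the Sca-1 antigen, had 1 library that stood apart. It measured 89.2, 99.4, 112 and 79.5 CPM in WT1 to WT4 and 183, 104, 98.6 and 101 CPM in KO1 to KO4. KO1 was the highest of the 8, and KO2 to KO4 lay within the wild-type range. The means were 94.9 ± 13.8 and 122 ± 41.1 CPM, and the log2 fold change was 0.36 ± 0.20 (SE; edgeR adjusted p = 0.999). Without KO1 it was 0.09. KO1 also held the highest level of 14 of the 22 tested genes of the interferon list, and of 8 of the 10 neutrophil markers, whose sum was 60.6 CPM there against 2.38 to 19.4 CPM in the other 7 libraries. Among the neutrophil genes, Ly6g was at 0 counts in KO1. The part of either list in the Ly6a value of KO1 was not tested.

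Ly6c2 is the abundant copy of the pair read as Ly6C on monocytes. It measured 264, 176, 170 and 278 CPM in WT1 to WT4 and 339, 222, 254 and 315 CPM in KO1 to KO4. KO1 and KO4 were above every wild-type library, while KO2 and KO3 fell between the low pair WT2 and WT3 and the high pair WT1 and WT4. The means were 222 ± 57.2 and 282 ± 53.9 CPM, with a log2 fold change of 0.35 ± 0.19 (SE; edgeR adjusted p = 0.999). The 5 libraries with Xist all lay above the 3 without it, which was also so for Ly6k, while Ly6c1 was lower in each of them; such a split without overlap held for 3 of the 7 members and 9.8% of all genes. Among the 5 libraries with Xist the difference in mean log2 CPM between genotypes was 0.15, and among the 3 without it, 1 of them knockout, it was 0.36. The monocyte markers, 10 of 10 detected, summed to 445 to 456 CPM in the wild-type libraries and 421 to 631 CPM in the knockouts. Of the 9 tested 0 passed, and 8 estimates were higher in knockout and 1 lower, against 51.7% higher over all genes. Their median log2 fold change was 0.40. An unadjusted edgeR p under 0.05 was found for 3 of the 9, against 1.97% of all genes. The plasmacytoid dendritic cell markers, 8 of 8 tested, summed to 6690 to 11300 CPM in the wild-type libraries and 7520 to 9050 CPM in the knockouts. Of these 0 passed, and 3 estimates were higher in knockout and 5 lower, with a median log2 fold change of -0.01. The part of either list in the Ly6c2 level was not tested.

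Ly6c1, the copy known from endothelium and some T cells, was rare. It had 0.928, 3.12, 4.66 and 0.885 CPM in WT1 to WT4 and 2.04, 2.56, 1.91 and 1.55 CPM in KO1 to KO4, from 32 to 206 counts per library. The wild-type libraries split into a high pair (WT2 and WT3) and a low pair (WT1 and WT4), with the 4 knockouts between them. The means of 2.40 ± 1.83 and 2.01 ± 0.418 CPM gave a log2 fold change of -0.25 ± 0.51 (SE; edgeR adjusted p = 0.999), which is uninformative about direction: the estimate ± 2 SE spans -1.27 to 0.76. Without WT3 the estimate was 0.27. Within the libraries with Xist the difference in mean log2 CPM was 0.96, and within those without it -0.56. The 6 endothelial markers were at 330 to 427 CPM (Pecam1), 60.9 to 94.1 CPM (Cdh5), 0.864 to 21.1 CPM (Kdr), 2.06 to 4.63 CPM (Emcn), 0.112 to 0.956 CPM (Esam) and at most 0.502 CPM (Tek, at 0 in 4 libraries); their part was not tested.

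Ly6c1 made up 0.351% of the Ly6c1 and Ly6c2 counts in WT1 (95% Wilson interval 0.249% to 0.495%), 1.75% in WT2 (1.53% to 2.0%), 2.68% in WT3 (2.29% to 3.13%) and 0.317% in WT4 (0.247% to 0.406%). In the knockouts it made up 0.597% in KO1 (0.475% to 0.750%), 1.14% in KO2 (0.923% to 1.41%), 0.745% in KO3 (0.581% to 0.953%) and 0.492% in KO4 (0.406% to 0.596%). The 3 libraries without Xist held the highest shares. The intervals cover counting error only and take each count as independent. Over all genes, counts were 3.67 to 4.0 times the expected counts of a library, so the intervals may be too narrow. By the authors' RSEM expected counts, which divide shared reads by estimate, the shares ran from 0.187% in WT4 to 2.25% in WT3. Both values fell outside the Wilson intervals of their libraries, as did those of KO1, KO2 and KO3 (0.453% in KO3). The values of WT1, WT2 and KO4 fell inside. WT2 and WT3 again stood highest by expected counts, whereas KO2 fell to 0.716%, below the 0.756% of KO1.

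**Figure D3:**
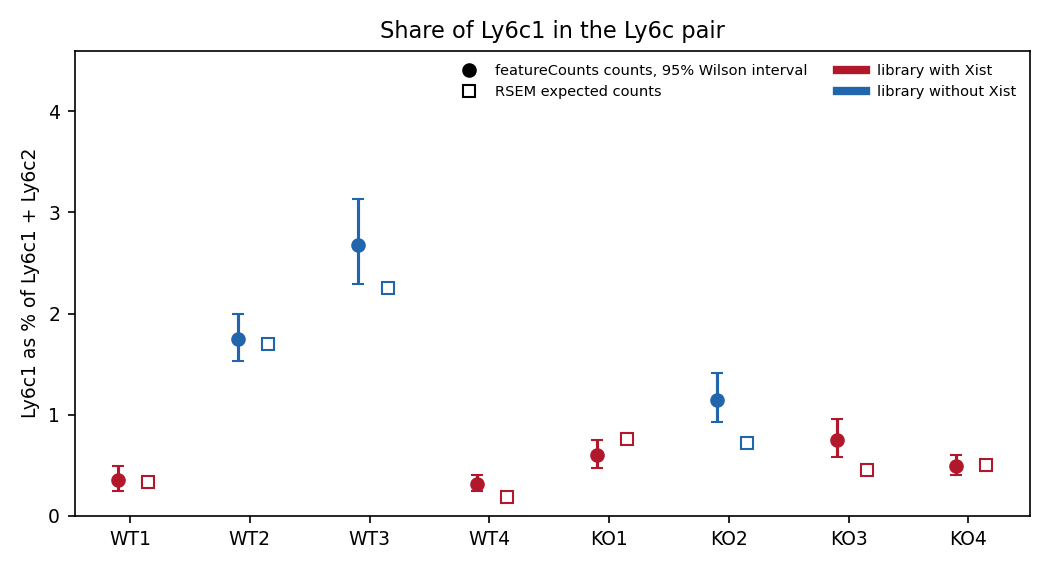
Ly6c1 as a percentage of Ly6c1 plus Ly6c2 in each library. Circles are featureCounts counts with 95% Wilson intervals, which take each count as independent, and squares are RSEM expected counts. WT3 is highest by both methods, at 2.68% and 2.25%.

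Reads that fit more than 1 gene bear on both copies. Of all distinct 75-base stretches of the Ly6c1 transcripts, 81.0% occur in no other gene, and of the Ly6c2 transcripts 90.5%, the pair sharing 259 stretches. Ly6a stood at 93.7% and Ly6i at 99.5%, while Ly6d, Ly6e, Ly6g and Ly6h were at 100%. The ratio of counts to expected counts, pooled over libraries, was 3.51 for Ly6c2 and 3.87 for Ly6c1, the latter running from 2.58 in KO1 to 5.98 in WT4, against 4.32 for the median of 9620 genes, whose 10th and 90th percentiles were 2.80 and 4.58. Ly6a at 4.03, Ly6e at 4.40 and Ly6d at 4.56 lay inside that range, as did Ly6k at 2.91, while Ly6i, with few counts, was at 4.61. Levels of Ly6c1 and Ly6c2 are therefore given with that uncertainty in the split.

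Ly6k, best known from testis and from tumours, had the largest coefficient of variation in the fit among the 7 tested members, at 52%. It measured 19.0, 2.79, 3.83 and 17.4 CPM in WT1 to WT4 and 7.47, 7.0, 7.53 and 9.16 CPM in KO1 to KO4. All 4 knockouts sat between a high wild-type pair (WT1 and WT4) and a low one (WT2 and WT3), the mirror image of Ly6c1. The means were 10.8 ± 8.63 and 7.79 ± 0.940 CPM, and the log2 fold change was -0.46 ± 0.53 (SE; edgeR adjusted p = 0.999), an estimate that says little because its ± 2 SE spans -1.53 to 0.60. Leaving out 1 library moved it between -0.79 without WT2 and -0.05 without WT1, with -0.74 without WT3 and -0.12 without WT4. Within the libraries with Xist the difference in mean log2 CPM was -1.17, and within those without it 1.08. Gm17189, a gene model on the opposite strand (74655914 to 74672489), overlaps Ly6k and shares 185 of its 75-base stretches, leaving 75.5% in no other gene. It was at 0.0607 to 0.599 CPM and also highest in WT4 and WT1. The library kit does not mark strand, so the reads of Ly6k and Gm17189 cannot be told apart where they overlap.

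**Figure D4:**
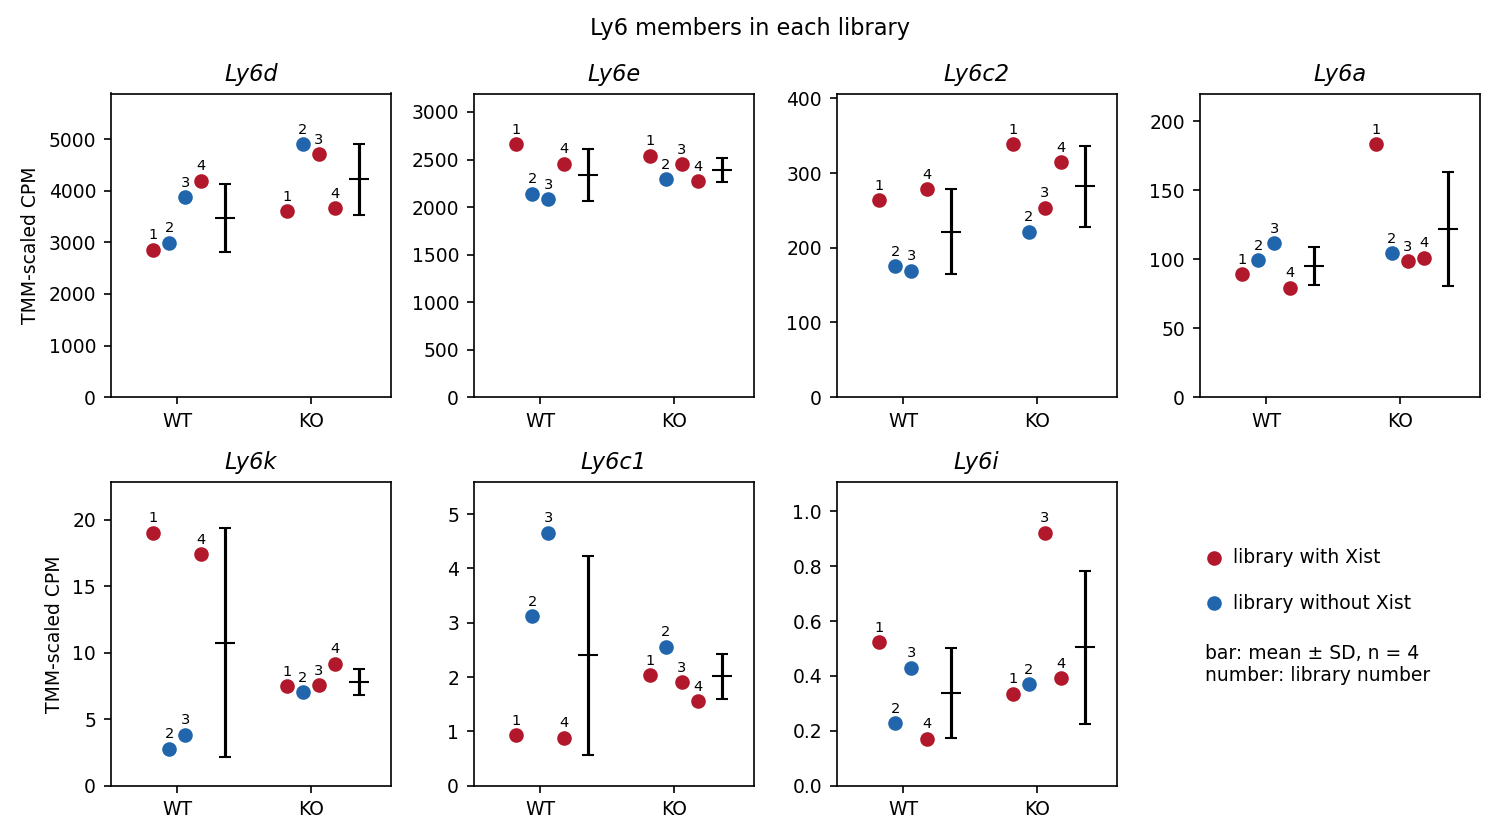
TMM-scaled CPM of the 7 tested members in each library, on linear axes that start at 0. Points carry the library number, red marks libraries with Xist and blue those without it, and bars give the mean ± SD of 4 libraries; Ly6a shows KO1 apart at 183 CPM, and Ly6k and Ly6c1 show the knockouts between 2 wild-type pairs.

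Ly6i, a close relative of Ly6a, was near the limit of detection. It had 0.522, 0.228, 0.429 and 0.171 CPM in WT1 to WT4 and 0.335, 0.370, 0.922 and 0.392 CPM in KO1 to KO4, from 12 to 30 counts per library. KO3 was the highest library and WT4 the lowest, with the other knockouts inside the wild-type range. The log2 fold change was 0.61 ± 0.52 (SE; edgeR adjusted p = 0.999), and without KO3 it was 0.16, without WT4 0.37. Ly6g, the antigen that defines mature neutrophils, had 1 count in WT3, 1 in WT4, 6 in KO4 and 0 in the other 5 libraries, 8 in total. A count of 0 allows up to 3 counts, which is 0.0455 to 0.0926 CPM in those 5 libraries. Ly6h, known mainly from brain, had 0 counts in each library, which allows up to 0.0081 CPM over all 8.

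Other genes of the same superfamily and pathway were taken from lists. Of 14 further Ly6 and three-finger genes of chromosome 15, 12 were found, 6 of them at 0 counts, and 2 could be tested. Lynx1, a modulator of nicotinic acetylcholine receptors, averaged 91.5 ± 11.6 CPM over the wild-type libraries and 88.1 ± 12.5 CPM over the knockouts, with a log2 fold change of -0.05. Ly6m was at 0.849 ± 0.369 and 0.709 ± 0.435 CPM. Of 6 Ly6 genes of chromosome 17, Ly6g5b alone was tested, at 1.41 ± 0.267 and 1.63 ± 0.167 CPM. Among 4 tested three-finger proteins elsewhere, Plaur, the urokinase receptor, stood at 56.6 ± 31.7 and 73.3 ± 24.3 CPM. None of these genes passed in either direction.

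The enzymes that build and attach the GPI anchor, on which most members depend, numbered 28 tested, and 0 passed in either direction. Their median log2 fold change was 0.02, with 16 estimates higher and 12 lower. Pigh, a subunit of the enzyme that starts the anchor, had the smallest p at 42.8 ± 3.91 and 51.5 ± 5.24 CPM (log2 0.27 ± 0.11; edgeR adjusted p = 0.999). The interferon list had 22 tested genes, 17 with higher and 5 with lower estimates, a median of 0.19, and 0 passing in either direction. Gbp3, an interferon-induced GTPase, measured 43.9 ± 6.49 and 54.5 ± 5.94 CPM (log2 0.31 ± 0.13; edgeR adjusted p = 0.999).

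Over the 6 pairs among Ly6a, Ly6d, Ly6e and Ly6i, Pearson's r of log2 CPM lay between -0.10 and 0.22 and Spearman's rho between -0.36 and 0.05 (8 libraries; lowest exact permutation p 0.601 and 0.389, lowest adjusted p 0.964 and 0.909 over 21 pairs). Without the 2 libraries farthest from the median, r ran from -0.86 to 0.57, so these values rest on single libraries. None of these 6 pairs passed. Of the 15 pairs with Ly6c1, Ly6c2 or Ly6k, whose levels split by Xist without overlap, 1 passed: Ly6c1 was low where Ly6k was high (r = -0.94, exact permutation p = 0.00236, adjusted p = 0.0495; rho = -0.95, exact permutation p = 0.00114, adjusted p = 0.024). Without the 2 farthest libraries r was again -0.94. With expected counts r of Ly6c1 and Ly6k was -0.87 (exact permutation p = 0.0057, larger than with counts and not adjusted over the pairs). Ly6e with Ly6k (r = 0.82, rho = 0.74), Ly6e with Ly6c1 (r = -0.80, rho = -0.71) and Ly6e with Ly6c2 (r = 0.74, rho = 0.67) did not pass after adjustment (exact permutation, lowest adjusted p 0.127 for r). The classes with and without Xist hold 5 and 3 libraries, too few for an r within each. As a description over the same 8 libraries, the gene most like Ly6a among 8568 compared was H2-K1, a class I histocompatibility gene (r = 0.908), then Scml4, Rtp4, Tmem126b and Slc37a3. Like Ly6a, H2-K1, Scml4 and Rtp4 were each highest in KO1. H2-K1 was at 1770 CPM there against 1450 to 1590 CPM in the other libraries, and Scml4 at 16.3 against 11.1 to 13.6 CPM. Whether these r values hold without KO1 was not tested. The gene most like Ly6c2 was Zdhhc20, a palmitoyltransferase (r = 0.987), followed by S100a6, Plaur, Myzap and Rmdn3. Ly6d was most like Mrpl24, a mitochondrial ribosomal protein gene (r = 0.968), then Ccnq, Spc24, Fam173a and Cox5a. Ly6e was most like Trabd (r = 0.967), then Blcap, Gpd1l and B3gnt8. The number of genes with r over 0.9 was 2 for Ly6a, 49 for Ly6c2, 70 for Ly6d and 38 for Ly6e.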

How the data were processed

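RNA of 8 libraries was prepared with a low-input kit that does not mark strand, per the labels' protocols. The authors deposited gene counts, made with featureCounts 1.6.4 per the file headers, and RSEM expected counts, TPM and FPKM values. Per the submitters' processing notes, RSEM was version 1.3.1 and STAR 2.6.0a, with build mm10. The count tables' header points to GRCm39 instead, and coordinates are read as that build. The deposited FPKM values were not used here.

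The test was that of edgeR 4.0.16 (R 4.3.3) on these counts: filterByExpr, TMM, a quasi-likelihood test without covariates, and Benjamini-Hochberg adjustment over all genes with a threshold of 0.05. DESeq2 1.42.0, other scalings and filters, rounded expected counts, covariates and libraries left out were alternatives. The fit was tested on simulated data. Log2 CPM for correlations used a prior count of 3. Correlations were tested by exact permutation, two-sided. Members were identified by symbol, and 97.1% of identifiers had one. The text names the 9 members, tested chromosome 15 relatives, the 5 genes most like each member with a mean of at least 10 CPM, and genes of smallest p, leaving out clone symbols, receptor segments, ribosomal and mitochondrial genes. Some genes under this rule are not reported here. The members and lists were chosen with earlier results of these data known. The comparison by Xist was added after seeing the data.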

Additional observations from a re-analysis of the deposited data

Results flagged for a closer look

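Of 18 groups of 4 libraries tested for a value far from the others, 3 had one, and chance gives about 1 in 20; that rate does not apply to Ly6g, whose groups are nearly all at 0 counts. Ly6a was at 183 CPM in KO1, against 98.6 to 104 CPM in KO2 to KO4. Ly6g was at 0.0905 CPM in KO4, which is 6 counts but 1.0 expected count, with 0 counts in KO1 to KO3. Ly6i was at 0.922 CPM in KO3, which is 30 counts, against 0.335 to 0.392 CPM in the other knockouts. By expected counts Ly6i was at 5.0 in KO3, against 4.04 in KO1, 3.03 in KO2 and 5.01 in the deeper KO4, so its flag rests on very few reads.

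The knockout difference of Ly6c1 and Ly6k had opposite signs in the libraries with Xist and in those without it. For Ly6c1, the difference in mean log2 CPM was 0.96 in the 5 libraries with Xist and -0.56 in the 3 without it. For Ly6k it was -1.17 and 1.08. The difference itself was tested as an interaction over all genes with edgeR, a test chosen after seeing the data. Ly6k had an interaction of -2.26 ± 0.37 (SE; edgeR adjusted p = 0.381) and Ly6c1 of 1.61 ± 0.59 (edgeR adjusted p = 0.998), so neither passed. Across all genes 0 passed, and 666 had an unadjusted p under 0.05. There is 1 knockout library without Xist.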

How the results depend on the processing

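With 0 genes past the threshold in 4 against 4, the count stayed at 0 under every alternative except 2: leaving out WT4 and KO4 gave 12, all lower in knockout, and the libraries without Xist (1 knockout) gave 4. None of the 7 members passed under any of 145 alternative values, the lowest adjusted p being 0.300 for Ly6d, and 135 of them kept their direction. The direction turned for Ly6a in the libraries without Xist (log2 -0.0363), for Ly6k there (1.07), for Ly6e in the libraries with Xist (-0.0854) and for Ly6c1 with Xist as covariate (0.33) and in the libraries with Xist (1.01). With each library left out in turn, Ly6k ran from -0.79 to -0.05 and Ly6i from 0.16 to 0.89, Ly6c1 ran from -0.53 to 0.27 (without WT3) and Ly6e from -0.0225 to 0.0937, below 0 without WT2, WT3 or KO1. The cause was not tested. With the replicate block Ly6c1 was 0.0768 and Ly6k -0.03, and 0 genes passed with 634 at an unadjusted p under 0.05. Ly6c2 was 0.36 with the block, and its edgeR p was 0.00288 unadjusted and 0.936 adjusted, against 0.0952 unadjusted without the block. Same-numbered libraries correlated at 0.44, 0.39, -0.03 and 0.17 after removing group means, so the numbers were not taken as pairs. WT1 and WT2 correlated best with KO1 and KO2, whereas WT3 did so with KO4 and WT4 with KO3. The r of Ly6a with Ly6e turned to -0.03 with group means removed and to -0.00 with expected counts, that of Ly6a with Ly6i to -0.17 and of Ly6d with Ly6i to -0.01. Depth limits Ly6c1, Ly6i and Ly6g, whose counts are low.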

Other observations

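A comparison chosen after seeing the data set the 5 libraries with Xist against the 3 without it, with genotype as a term in the edgeR fit. It passed 176 of 16352 genes, 1.08%, of which 125 were higher and 51 lower with Xist. That count rests on single libraries: it was 5 without WT3, 7 without WT2, 7 without KO2, 42 without WT4, 116 without KO1 and 145 to 179 without WT1, KO3 or KO4, and 13 in the wild-type libraries alone. Ly6c2 was among them, at 290 ± 35.8 CPM with Xist and 189 ± 28.4 CPM without it (SD, n = 5 and 3), higher in 5 of 5 libraries, with a log2 difference of 0.56 ± 0.11 (edgeR adjusted p = 0.0452). The call did not hold when any library but KO3 was left out: the adjusted p then lay between 0.0556 without KO4 and 0.186 without WT2. The log2 difference stayed between 0.52 and 0.65 with each library left out. Without KO3 the adjusted p was 0.0245, and in the wild-type libraries alone 0.125.

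Ly6k was at 12.1 ± 5.63 and 4.54 ± 2.20 CPM in the same classes, with a log2 difference of 1.39 ± 0.41 that did not pass (edgeR adjusted p = 0.156). Without KO2 the difference was 2.47 and passed (adjusted p = 0.0240), and in the wild-type libraries alone it was 2.46 (adjusted p = 0.0379). Ly6c1 went the other way, at 1.46 ± 0.537 and 3.45 ± 1.09 CPM, a log2 difference of -1.46 ± 0.39 (edgeR adjusted p = 0.118). The classes did not overlap for these 3 of the 7 members, against 9.8% of all genes. Ly6e (0.19), Ly6i (0.27), Ly6a (-0.07) and Ly6d (-0.11) did not pass.

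In the same comparison 5 of the 22 interferon genes passed, each higher with Xist, among them Usp18 (log2 1.31), Irf7 (1.24), Ifi44 (1.06) and Ifit2 (0.81). Their edgeR adjusted p lay between 0.0088 and 0.0481. Without WT2, WT3 or KO2, and in the wild-type libraries alone, 0 of the list passed, without WT4 1, and without KO1 or KO3 3. The median of the list was 0.53, against 0.00 over all genes. Plasmacytoid dendritic cell markers summed to 7900 to 11300 CPM with Xist and 6690 to 7520 CPM without it, and lymphoid progenitor markers to 2980 to 4170 and 4510 to 5720 CPM. Whether the mix of cells takes part in the Ly6c2 difference was not tested.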
